A study of Elaeis guineensis with 58 samples.

Results

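Spear leaves of oil palms supplied by agency L2 were compared with those of agency L1, using only RNA extracted by the CTAB method and only palms that had yielded no embryoid lines (zero group) or few (low group). These libraries were 36 of the 58 in the series, 4 from L2 and 32 from L1, chosen by their labels for agency, extraction and embryogenesis group. All came from Elaeis guineensis ortets, the palms whose tissue is taken for cloning, and all were made from the spear leaf, the unopened frond F0, with the QuantSeq forward kit, which reads the 3′ ends of transcripts. The study sorted its palms by past yield of embryoid lines, as zero, low (1 to 89 lines) or high (90 lines or more).

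The L2 zero palms were 2 palms of genotype label Yangambi_A with 0 lines, and the L2 low palms were 2 of label Yangambi_B with 2 and 35 lines. The L1 zero palms numbered 17, of which 12 were Dumpy Yangambi Avros and 5 Dumpy Avros, all with 0 lines. The L1 low palms numbered 15, of which 8 were Dumpy Yangambi Avros and 7 Dumpy Avros, with 1 to 48 lines and a median of 2. L2 libraries were read to 50 nt and L1 libraries to 100 nt, and no genotype label occurred in both agencies. Agency, read length and genotype label therefore changed together in every comparison of L2 with L1, and their parts in a difference cannot be told apart. Within L2 the embryogenesis group and the genotype label also coincided. Each library was a separate palm by its label.

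The spear leaf is the youngest frond of the crown, still furled and enclosed by older leaf bases, and its plastids are those of a leaf not yet fully exposed to light. Plastids carry a small genome of their own. It encodes subunits of the photosystems, the cytochrome b6f complex, the ATP synthase and the NDH complex, as well as ribosomal proteins, tRNAs and a bacterial-type RNA polymerase that transcribes most photosynthesis genes. Nuclear genes encode the remaining subunits and the signalling machinery of hormones such as auxin and cytokinin. As a check of the tissue, the plastid genes psbA and rbcL were read in every library. The MADS-box genes AG2, AGL2-3, AGL6-1, MADS2 and SQUA1, known from flowers, and the homeobox gene KNOX1, known from meristems, reached at most 0.686 CPM (read counts scaled to a common library size) in any of the 36 libraries. Of the other MADS-box genes, GLO2 reached 4.66 CPM in L2 and 9.46 CPM in L1, and DEF1 reached 1.7 CPM in L2 and 1.75 CPM in L1.

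Of the named genes, the plastid tRNA gene trnE-UUC and the auxin signalling gene IAA1 were higher in the L2 palms than in every L1 palm, with log2 fold changes of 2.54 ± 0.33 and 1.84 ± 0.36 (SE). petB, of the photosynthetic cytochrome b6f complex, was lower in L2, with a log2 fold change of -1.79 ± 0.38 (SE). LOC105043853 had 142 to 279 CPM in L2, against 0 to 12.8 CPM in L1, and LOC105048324 at most 1.64 CPM in L2, against a median of 379 CPM in L1. These 5 genes had edgeR adjusted p below 0.05. The LOC genes were picked for large fold changes among called genes in which the agencies did not overlap. Each of them passed the filter on low counts through the agency in which it was higher.

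Depth overlapped between the agencies. Total gene counts were 5797488 and 5710783 in the L2 zero palms and 5978482 and 4215872 in the L2 low palms, against 3943437 to 9685451 in L1 with a median of 5889421. The difference of the means had an adjusted p of 0.338 in an exact two-sided permutation test over the 58905 ways to choose 4 of 36 libraries, adjusted over 8 library measures by the Benjamini-Hochberg method. In the same test the share of multi-mapped reads, the share of reads outside genes and the number of genes detected also had adjusted p of 0.338. Ambiguous reads, those that fell on more than 1 gene, took 0.256%, 0.269%, 0.266% and 0.2% of the L2 tables, against a median of 0.189% in L1, with an adjusted p of 0.00417 in the exact permutation test. The highest L1 library in this share, L1 zero palm 6 at 0.268%, reached the level of the L2 palms.

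The kind of transcript read differed between the agencies. Plastid genes took 6.22% and 6.78% of gene counts in the L2 zero palms and 5.37% and 7.8% in the L2 low palms, against 3.87% to 15.5% in L1 with a median of 11.4%. Of the 32 L1 libraries 28 lay above all 4 L2 libraries and 3 below them, and the means differed by -4.89 percentage points with an adjusted p of 0.0129 in the exact permutation test. That call was lost without L2 low palm 1, where the exact permutation test gave -4.5 points and an adjusted p of 0.055. These are bulk samples, in which fewer plastid-rich cells and less plastid RNA per cell cannot be told apart. The 3′ kit primes on stretches of A, and how fully it captures plastid transcripts and tRNAs was not tested.

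Nuclear tRNA genes moved the other way. They took 0.05% and 0.0498% of gene counts in the L2 zero palms and 0.0594% and 0.0741% in the L2 low palms, against 0.0074% to 0.0536% in L1 with a median of 0.0267%. Of the L1 libraries 31 lay below all 4 L2 libraries, and the adjusted p was 0.000815 in the exact permutation test. The means differed by 0.0305 percentage points. With all 6 L2 CTAB libraries, high palms included, they differed by 0.0176 points, with an adjusted p of 0.0186 in the exact permutation test. One row, TRNAF-GAA, held most of these counts, 79.6% and 82.2% in the L2 zero palms and 87% and 66.3% in the L2 low palms, against 70.9% to 91.3% in L1. The other nuclear tRNA rows took 0.0102% and 0.00888% of gene counts in the L2 zero palms and 0.00771% and 0.025% in the L2 low palms, against 0.00134% to 0.011% in L1 with a median of 0.0045%, and 28 L1 libraries lay below all L2 libraries (given without a test). The 10 most abundant genes of each library together took 6.16% to 6.76% of gene counts in L2, against 5.18% to 12.7% in L1 with a median of 9.81%. In this share 30 of 32 L1 libraries lay above all L2 libraries, with an adjusted p of 0.00204 in the exact permutation test.

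**Figure D1:**
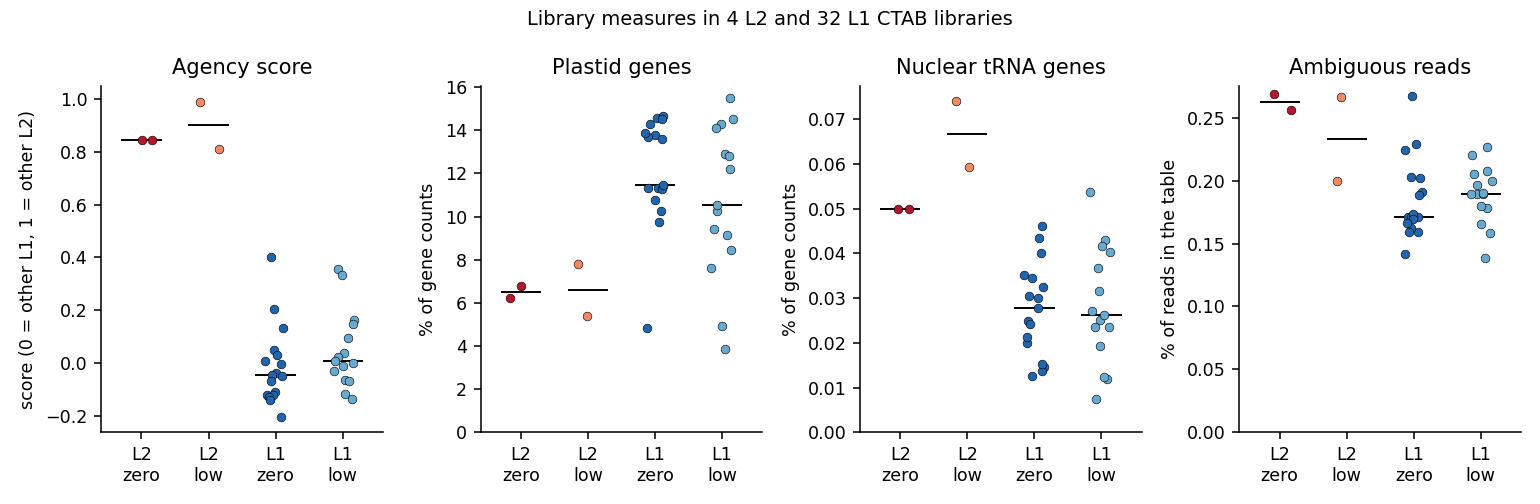
Measures of each library by agency and embryogenesis group, one point per library with a bar at the group median. The vertical axes give the agency score, in which 0 is the mean of the other L1 libraries and 1 that of the other L2 libraries, then the percentages of gene counts in plastid and nuclear tRNA genes, and the percentage of ambiguous reads. The L2 scores lie at 0.809 to 0.99 and the highest L1 score is 0.402, while 3 L1 libraries lie below all L2 libraries in plastid share.

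Whole profiles separated the agencies. Each library was placed on the line from the L1 mean (score 0) to the L2 mean (score 1) in log2 CPM, with both means computed without that library. The L2 palms scored 0.845 and 0.844 in the zero group and 0.99 and 0.809 in the low group, against -0.203 to 0.402 in L1 with a median of -0.00745. The nearest L1 libraries were zero palm 6, a Dumpy Avros palm at 0.402, and the Dumpy Yangambi Avros palms low 15 at 0.355 and low 6 at 0.335, while the next L1 library scored 0.203. L1 low palms 6 and 15 had plastid shares of 3.87% and 4.91%, both among the 3 lowest in L1, whereas L1 zero palm 6 had 13.8% plastid counts and the highest ambiguous share in L1.

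Across all genes, 6653 of 20340 tested genes (32.7%) were called different between L2 and L1 by edgeR's quasi-likelihood test at a Benjamini-Hochberg adjusted p below 0.05. Of these, 3210 (15.8% of genes tested) were higher and 3443 (16.9%) lower in L2. At least 2-fold differences were found in 1912 called genes higher (9.4%) and 2171 lower (10.7%) in L2. The median log2 fold change over all genes was -0.05. Every L2 library lay above every L1 library in 483 genes (2.37%) and below every L1 library in 304 genes (1.49%). Leaving out L2 low palm 1 left 4660 calls, while leaving out the 3 L1 libraries nearest to L2 gave 7391.

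**Figure D2:**
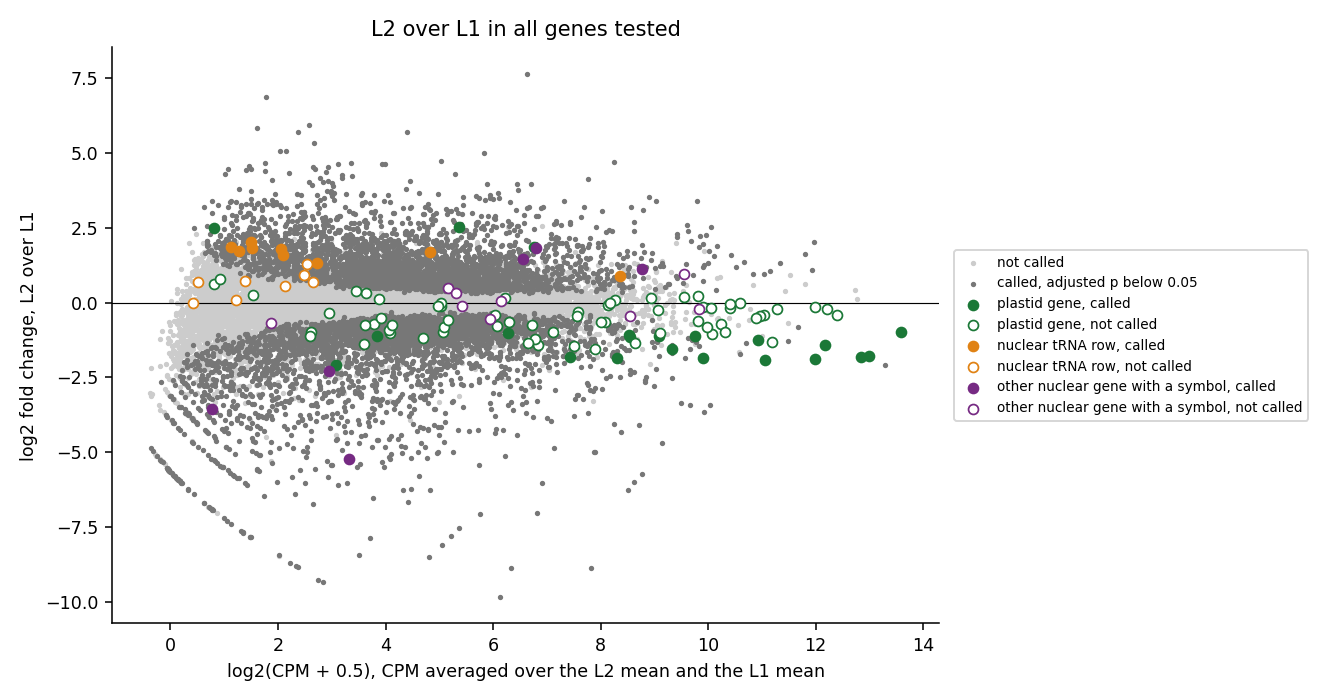
Log2 fold change of L2 over L1 (vertical axis) against level (horizontal axis, log2 of CPM plus 0.5) for the 20340 genes tested, with dark grey points for called genes and coloured points for plastid genes, nuclear tRNA rows and other nuclear genes with a symbol. Called plastid genes are mostly below 0 and the 9 called nuclear tRNA rows are above it, while called genes without a symbol spread to both sides.

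These 787 genes (3.87%) without overlap were looked up in L2 libraries that had not been used to choose them. The 32 L1 libraries were the same ones that had chosen the genes, so the shares over all tested genes below are not what would be found without a difference, and all shares are given as a description. In both CTAB libraries of L2 high palms, 118 of the 483 genes (24.4%) lay above every L1 library (2.06% of all tested genes did), and 376 (77.8%) lay above the L1 median (37.2% of all tested genes). Of the 304 genes, 70 (23%) lay below every L1 library in both high palms (1.38% of all tested genes), and 265 (87.2%) lay below the L1 median (34.6% of all tested genes). The 14 L2 palms that had only InnuPREP libraries were all above every L1 library in 55 of the 483 genes (11.4%) and in 1.2% of all tested genes. They were all below every L1 library in 33 of the 304 (10.9%) and in 0.919% of all tested genes. These palms differ from L1 in extraction as well.

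The gap between the agencies was often narrow. The lowest L2 library was at least 2-fold above the highest L1 library in 52 of the 483 genes, and the lowest L1 library at least 2-fold above the highest L2 library in 21 of the 304. No gene was on (at least 1 CPM) in all libraries of one agency and off (below 0.1 CPM) in all of the other, in either direction. With on set at 0.5 CPM there was 1, LOC105054575, named for that reason after its values had been seen. It had no count in the 4 L2 libraries, against 0.702 to 25.7 CPM in L1 with a median of 6.91 CPM, and was at least 62.6-fold lower in L2 taking the 3 counts that a count of 0 over the 4 libraries allows. The 2 L2 high palms extracted with CTAB had 1.98 and 5.35 CPM, inside the L1 range.

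Among plastid genes, at least 1 gene of each photosynthetic complex was called lower in L2, the RNA polymerase genes and all but 1 ribosomal protein gene were not called, and 3 tRNA genes were called higher. The filter on low counts passed 86 plastid genes and removed 26, and of the 86 tested 18 (20.9%) were called lower and 3 (3.49%) higher in L2, compared with 16.9% and 15.8% of all genes tested. The share called lower was thus near that of all genes. Their median log2 fold change was -0.72, and 72 of the 86 lay below 0, compared with 52.9% of all genes tested. The count lower was 35 without the 3 L1 libraries nearest to L2, 46 against the 15 L1 libraries whose multi-mapped share (23.9% to 34.2%) matched L2, and 42 with depth and multi-mapped share as terms. It was 10 without L2 low palm 1, 11 without L2 zero palm 2, 10 with zero palms only and 1 with low palms only, the last 2 with 2 L2 palms each. DESeq2 called 28 lower and limma-voom 31, and a 2-fold minimum left 1. With all 6 L2 CTAB libraries the count was 42, with InnuPREP libraries of the same 4 L2 palms 62, and with the 12 L2 InnuPREP libraries 74.

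The cytochrome b6f complex, which passes electrons between the photosystems, had 4 of 6 genes (66.7%) called lower in L2 (petA, petB, petL and petN), beside 16.9% of all genes tested, and a median log2 fold change of -1.5. petB, its cytochrome b6 subunit, had 3871 and 3054 CPM in the L2 zero palms and 2432 and 5350 CPM in the L2 low palms, against 1849 to 20120 CPM in L1 with a median of 13170 CPM. Its log2 fold change was -1.79 ± 0.38 (SE), with an edgeR adjusted p of 0.000486. All L2 palms lay below 30 of the 32 L1 palms, and L1 low palm 6, one of the 3 L1 libraries nearest to L2, was the lowest of all.

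petN, a small subunit of the same complex, had 1683 and 1678 CPM in the L2 zero palms and 1029 and 2508 CPM in the L2 low palms, against 1645 to 15590 CPM in L1 with a median of 6415 CPM. The log2 fold change of petN was -1.9 ± 0.39 (SE), with an edgeR adjusted p of 0.000271. petL, another small subunit, had 5.18 and 2.13 CPM in the L2 zero palms and 1.39 and 3.5 CPM in the L2 low palms, against 1.75 to 33 CPM in L1 with a median of 11.4 CPM, a log2 fold change of -2.07 ± 0.53 (SE) and an edgeR adjusted p of 0.00294. In both genes the groups overlapped at the low end of L1. petD, the subunit IV gene, and petG were not called, and petG alone in the complex had a value above 0, with a log2 fold change of 0.62.

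Photosystem II, the complex that splits water, had 5 of 15 genes (33.3%) called lower in L2 (psbA, psbB, psbD, psbM and psbT). Of all genes tested 16.9% were called lower, and the median log2 fold change of this complex was -1.36. psbA, which encodes the reaction centre protein D1, had 959 and 783 CPM in the L2 zero palms and 590 and 1221 CPM in the L2 low palms, against 255 to 11570 CPM in L1 with a median of 3011 CPM. psbD, which encodes the partner protein D2, had 399 and 282 CPM in the L2 zero palms and 277 and 709 CPM in the L2 low palms, against 130 to 3718 CPM in L1 with a median of 1347 CPM. Each had 28 L1 palms above all L2 palms and 2 below them. The log2 fold change was -1.93 ± 0.59 (SE) for psbA and -1.84 ± 0.51 (SE) for psbD, with edgeR adjusted p of 0.0112 and 0.00588. The call of psbA was lost without L2 low palm 1. psbT, a small subunit, had a log2 fold change of -1.86 ± 0.53 (SE) and an edgeR adjusted p of 0.00681.

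Photosystem I, which reduces ferredoxin, had 1 of 5 genes (20%) called lower in L2, near the 16.9% of all genes tested. This was psaI, a small subunit, with 51.6 and 51.2 CPM in the L2 zero palms and 38.8 and 62.9 CPM in the L2 low palms, against 21.7 to 199 CPM in L1 with a median of 103 CPM. Its edgeR adjusted p of 0.039 was lost without any one of the 4 L2 palms. psaB, a core protein of this photosystem, had a log2 fold change of -1.54 ± 0.67 (SE) but an edgeR adjusted p of 0.0719.

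The ATP synthase had 2 of 6 genes (33.3%) called lower in L2, beside 16.9% of all genes tested. Its median log2 fold change was -1.02. atpE, its epsilon subunit, had 2119 and 3211 CPM in the L2 zero palms and 1564 and 3143 CPM in the L2 low palms, against 2032 to 9424 CPM in L1 with a median of 7039 CPM. With a log2 fold change of -1.42 ± 0.29 (SE), it had an edgeR adjusted p of 0.000289, and 29 of 32 L1 palms lay above all L2 palms. atpF had 7453 and 8541 CPM in the L2 zero palms and 6230 and 11030 CPM in the L2 low palms, against 4533 to 29260 CPM in L1 with a median of 16220 CPM. It was among the 2 genes of highest mean CPM lower in L2, with a log2 fold change of -0.98 ± 0.32 (SE) and an edgeR adjusted p of 0.0173, lost without L2 zero palm 1 or L2 low palm 1.

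The NDH complex, which feeds electrons back into the chain, had 4 of 10 tested genes (40%) called lower in L2 (ndhA, ndhC, ndhF and ndhI). Of all genes tested 16.9% were called lower, and the median log2 fold change of this complex was -1.05. ndhC had 708 and 645.4 CPM in the L2 zero palms and 324 and 506 CPM in the L2 low palms, against 377 to 1827 CPM in L1 with a median of 1241 CPM. L2 over L1, ndhC had a log2 fold change of -1.11 ± 0.29 (SE) and an edgeR adjusted p of 0.00331. The call of ndhI (edgeR adjusted p of 0.0391) was lost without L2 zero palm 1, L2 zero palm 2 or L2 low palm 1, and that of ndhA (edgeR adjusted p of 0.0487) was lost in 26 of the 36 fits that left out 1 library. rbcL, the large subunit of Rubisco, had 1262 and 743 CPM in the L2 zero palms and 893 and 1709 CPM in the L2 low palms, against 292 to 6048 CPM in L1 with a median of 2428 CPM. Its log2 fold change of -1.25 ± 0.48 (SE) had an edgeR adjusted p of 0.0423, which was lost in 8 of those 36 fits (without L2 zero palm 1 or 2, L2 low palm 1, L1 zero palm 3, 5 or 10, or L1 low palm 3 or 13).

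The plastid gene expression machinery was largely not called. None of the 4 RNA polymerase genes was called, beside 32.7% of all genes tested. The log2 fold changes of these 4 genes ran from -0.09 for rpoC2 to 0.23 for rpoC1. rpoB, which encodes the beta subunit, had 980 and 723 CPM in the L2 zero palms and 669 and 813 CPM in the L2 low palms, against 286 to 1386 CPM in L1 with a median of 670 CPM. Of 17 tested ribosomal protein genes 1 was called lower (5.88%) and 0 higher, beside 16.9% and 15.8% of all genes tested. The median log2 fold change of these 17 genes was -0.13. The one called was rps14, with 2755 and 3102 CPM in the L2 zero palms and 2599 and 4616 CPM in the L2 low palms, against 1658 to 21620 CPM in L1 with a median of 11580 CPM. The fit gave rps14 a log2 fold change of -1.81 ± 0.42 (SE) and an edgeR adjusted p of 0.00113. Of the L1 palms 29 lay above all L2 palms in rps14 and 3 below them.

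**Figure D3:**
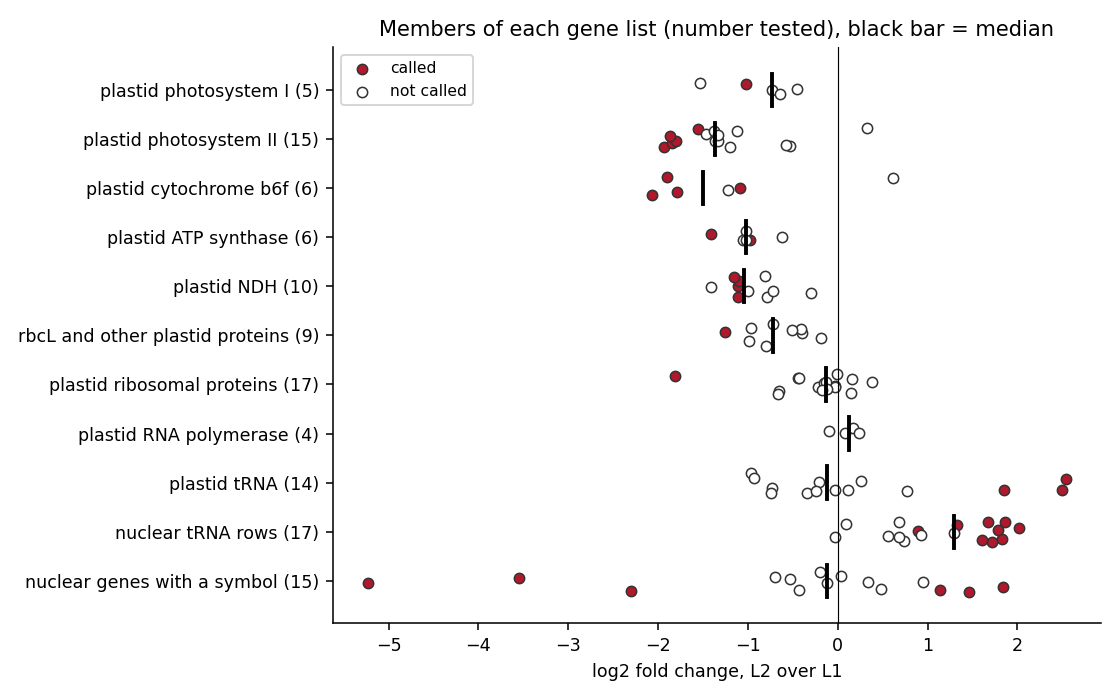
Log2 fold change of L2 over L1 (horizontal axis) for each tested member of the plastid and nuclear gene lists (rows, with the number tested), filled where called and open where not, with a black bar at the list median. The photosynthetic complexes have medians between -1.5 and -0.74, those of the RNA polymerase and ribosomal protein genes are 0.13 and -0.13, with rps14 at -1.81, and 3 plastid tRNA genes and 9 nuclear tRNA rows are called above 0.

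The clearest plastid difference was in tRNA genes that stand together in land plant plastid genomes and are transcribed as a cluster. trnE-UUC, whose tRNA for glutamate also starts chlorophyll and haem synthesis, had 84.1 and 60.4 CPM in the L2 zero palms and 83.8 and 49 CPM in the L2 low palms, against 2.88 to 32.8 CPM in L1 with a median of 8.98 CPM. Every L2 palm lay above every L1 palm. This held of 1 of the 86 plastid genes tested, beside 2.37% of all genes tested. The log2 fold change was 2.54 ± 0.33 (SE), with an edgeR adjusted p of 2.58e-07.

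trnY-GUA, the tyrosine tRNA of that cluster, had 176 and 123 CPM in the L2 zero palms and 250 and 124 CPM in the L2 low palms, against 18.9 to 124 CPM in L1 with a median of 43.9 CPM. Its groups met only at L1 zero palm 4, the highest L1 palm, which lay above L2 zero palm 2 and L2 low palm 2. The log2 fold change was 1.84 ± 0.28 (SE), with an edgeR adjusted p of 5.48e-06. trnD-GUC, the aspartate tRNA, had 1.73 and 1.64 CPM in the L2 zero palms and 3.55 and 1.53 CPM in the L2 low palms, against 0 to 2.58 CPM in L1 with a median of 0.23 CPM. It rested on 50 counts in L2, with 3 L2 and 2 L1 libraries at the minimum of the filter, and its call (edgeR adjusted p of 0.00846) was lost without L2 low palm 1. Of the other 11 plastid tRNA genes tested none was called, and 15 of the 29 did not pass the filter. The 3 calls were 21.4% of the 14 plastid tRNA genes tested, near the 15.8% of all genes tested called higher. The median log2 fold change of the 14 genes was -0.12, and 8 of them lay below 0.

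The calls of trnE-UUC and trnY-GUA held in all 19 alternative settings and without each of the 36 libraries. In L2 libraries not used in the fit, both CTAB high palms had 20.1 and 35.1 CPM of trnE-UUC, and the 14 palms with only InnuPREP libraries had 23.9 to 199 CPM with a median of 69.1 CPM. For trnY-GUA the CTAB high palms had 64.1 and 99 CPM, inside the L1 range. The 14 palms with only InnuPREP libraries had 22.6 to 144 CPM of it, with a median of 80.6 CPM, so that they overlapped L1. The 2 high palms thus lay closer to L1 in both genes than the 4 zero and low palms did.

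Within the plastid counts the make-up differed as well. Photosynthesis genes (psa, psb, pet, atp, ndh and rbcL) made up 39.4% and 38.8% of plastid counts in the L2 zero palms and 35.9% and 46.1% in the L2 low palms, against 38.3% to 61.3% in L1 with a median of 55%. RNA polymerase genes made up 4.34% and 3.85% in the L2 zero palms and 4.15% and 3.08% in the L2 low palms, against 1.25% to 4.53% in L1 with a median of 1.72%. Of the L1 libraries 31 lay above all L2 libraries in the first share and 31 lay below all L2 libraries in the second. The exception in both was L1 low palm 15, with 38.3% photosynthesis genes and 4.53% RNA polymerase genes. The CTAB high palms of L2, which were not used here, had 34.3% and 35.3% photosynthesis genes and 4.08% and 3.97% RNA polymerase genes.

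The cluster of trnE-UUC, trnY-GUA and trnD-GUC made up 0.421% and 0.291% of plastid counts in the L2 zero palms and 0.681% and 0.243% in the L2 low palms, against 0.0222% to 0.198% in L1 with a median of 0.0452%. Here no L1 library reached any of the 4 L2 libraries. L1 low palm 15 was again the nearest. Ribosomal protein genes made up 24.7% to 28.5% of plastid counts in L2, against 18% to 26.3% in L1, and 30 of 32 L1 libraries lay below all L2 libraries. A higher share of plastid counts is not a higher level, because the other plastid genes enter it too. Of all gene counts, plastid ribosomal protein genes took a median of 1.74% in L2 and 2.77% in L1. Plastid RNA polymerase genes took a median of 0.251% in L2 and 0.198% in L1. These shares are given as a description, without a test.

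**Figure D4:**
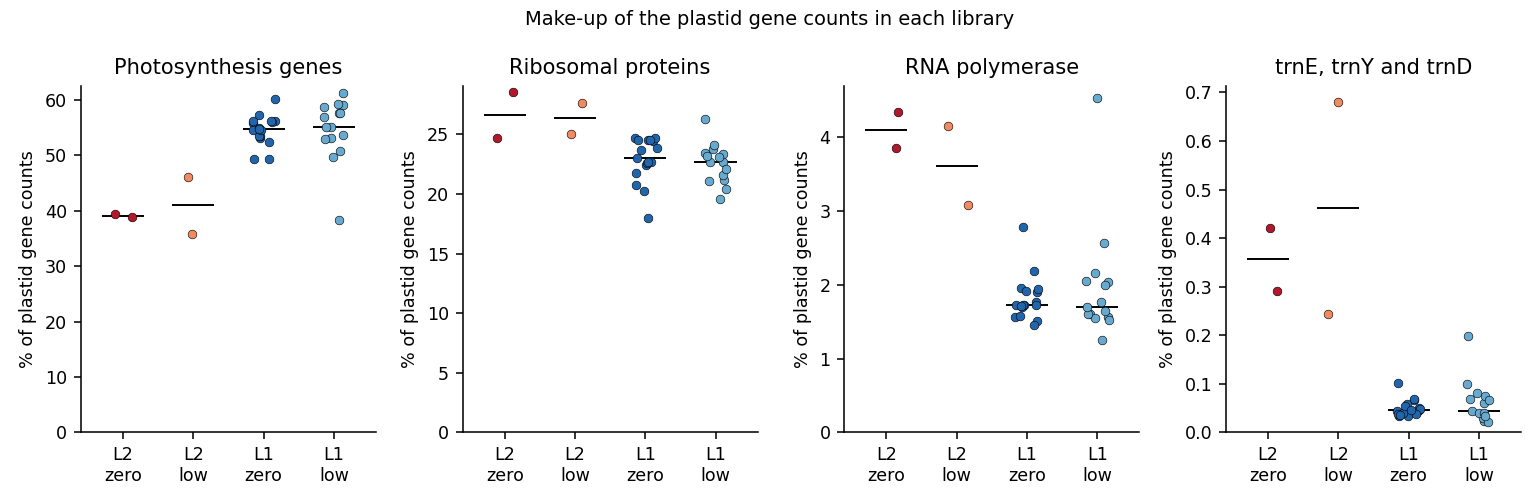
Share of each library's plastid gene counts (vertical axes, percent) in photosynthesis genes, ribosomal protein genes, RNA polymerase genes and the trnE, trnY and trnD genes, one point per library by agency and embryogenesis group with a bar at the median. The L2 libraries lie low in the first share, with 31 of 32 L1 libraries above them, and above all 32 L1 libraries in the last.

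Of 46 nuclear tRNA rows 17 passed the filter, and 9 of these (52.9%) were called higher in L2 and none lower, compared with 15.8% and 16.9% of all genes tested. Their median log2 fold change was 1.29, and 16 of 17 lay above 0, compared with 47.1% of all genes tested. The filter asked for its minimum in 4 libraries, which the L2 palms alone could meet. Each of the 17 rows also had at least 4 L1 libraries at that minimum, and a stricter filter left 5 calls. TRNAL-UAG, a leucine tRNA, had 3.28 and 1.81 CPM in the L2 zero palms and 1.85 and 8.09 CPM in the L2 low palms, against 0.11 to 2.84 CPM in L1 with a median of 0.777 CPM. TRNAL-UAG had a log2 fold change of 2.01 ± 0.46 (SE) and an edgeR adjusted p of 0.00102. TRNAE-CUC and TRNAI-UAU, for glutamate and isoleucine, had log2 fold changes of 1.83 ± 0.52 and 1.87 ± 0.64 (SE), with edgeR adjusted p of 0.00651 and 0.0238. TRNAF-GAA, for phenylalanine, had 399 and 384 CPM in the L2 zero palms and 477 and 452 CPM in the L2 low palms, against 65 to 476 CPM in L1 with a median of 239 CPM.

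Without L2 low palm 2, 1 of the rows was called, and with all 6 L2 CTAB libraries 5 were. TRNAL-UAG, TRNAE-CUC and TRNAI-UAU lost their calls without it, TRNAI-UAU also without L2 zero palm 2, and with the zero palms alone none was. L2 low palm 2 also had the highest multi-mapped share of the 4 L2 palms, 34.2%, and 3 rows were called against the 15 L1 libraries of matching multi-mapped share. Several tRNA genes share a sequence, so their reads may be split or set aside. The CTAB high palms of L2 had 0.77 and 0.637 CPM of TRNAL-UAG and 0.33 and 0.255 CPM of TRNAE-CUC. They had 0 CPM of TRNAI-UAU, and all these values lay inside the L1 range. With InnuPREP libraries of the same 4 L2 palms, 7 rows were called lower and none higher, and with the 12 L2 InnuPREP libraries 6 lower and none higher, so the direction differed between the extractions of the same L2 palms.

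Outside the plastid and tRNA genes, 23 nuclear genes carried a symbol, and 15 passed the filter. Of these 3 (20%) were called higher in L2 (IAA1, GST and HCS) and 3 (20%) lower (CPRZ, LIP1 and CHI2), near the 15.8% and 16.9% of all genes tested. IAA1, an Aux/IAA protein of auxin signalling, had 169 and 142 CPM in the L2 zero palms and 166 and 219 CPM in the L2 low palms, against 12.6 to 120 CPM in L1 with a median of 43.8 CPM. Every L2 palm lay above every L1 palm. The log2 fold change was 1.84 ± 0.36 (SE), with an edgeR adjusted p of 0.000179, and its call held without each of the 36 libraries. The call of IAA1 was lost with a 2-fold minimum and held in the other 18 alternative settings. The CTAB high palms of L2 had 139 and 60.9 CPM, the second of which was inside the L1 range. The 14 palms with only InnuPREP libraries had 33.1 to 293 CPM of IAA1, with a median of 123 CPM, so that they overlapped L1.

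GST, a glutathione S-transferase of detoxification, had 158 and 143 CPM in the L2 zero palms and 159 and 90.7 CPM in the L2 low palms, against 6.63 to 116 CPM in L1 with a median of 47.5 CPM. L2 low palm 2 lay inside the L1 range and the other 3 above it, and the log2 fold change was 1.46 ± 0.42 (SE), with an edgeR adjusted p of 0.00751. Its call was lost against L1 libraries of matching multi-mapped share, with low palms only and with a 2-fold minimum. In GST the CTAB high palms of L2 had 28.5 and 67.1 CPM, both inside the L1 range. The 14 palms with only InnuPREP libraries had 57.9 to 563 CPM, with a median of 203 CPM. HCS had 659 and 541 CPM in the L2 zero palms and 1001 and 212 CPM in the L2 low palms, against 38.3 to 771 CPM in L1 with a median of 276 CPM. Its log2 fold change of 1.14 ± 0.38 (SE) had an edgeR adjusted p of 0.0195, lost without L2 zero palm 1 or L2 low palm 1, against L1 Dumpy Avros only, with low or zero palms only and with a 2-fold minimum.

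CPRZ had 2.42 and 3.29 CPM in the L2 zero palms and 1.24 and 2.84 CPM in the L2 low palms, against 2.17 to 32.6 CPM in L1 with a median of 10.7 CPM. Only L1 zero palm 6, the L1 library nearest to L2 by its whole profile, lay among the L2 palms, and the log2 fold change was -2.3 ± 0.53 (SE), with an edgeR adjusted p of 0.00103, lost with zero palms only. LIP1 had 0.345 and 1.48 CPM in the L2 zero palms and no count in either L2 low palm, against 0 to 51.2 CPM in L1 with a median of 14 CPM. For LIP1 the log2 fold change was -5.23 ± 1.32 (SE), with an edgeR adjusted p of 0.00252, and 28 of 32 L1 palms lay above all L2 palms. This call was lost in limma-voom and with zero palms only. LIP1 passed the filter through the L1 palms, with 0 L2 and 28 L1 libraries at the minimum. CHI2 rested on 4 counts in L2, at most 0.518 CPM, against a median of 2.44 CPM in L1. It too passed the filter through the L1 palms, with 0 L2 and 18 L1 libraries at the minimum. Its call (edgeR adjusted p of 0.0113) was lost without L2 low palm 1, in limma-voom, with zero or low palms only, with InnuPREP libraries of the same 4 palms and with a 2-fold minimum.

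The other 9 tested symbols were not called. GPAT, a glycerol-3-phosphate acyltransferase, had 24.9 and 40.1 CPM in the L2 zero palms and 50.7 and 49 CPM in the L2 low palms, against 11.3 to 44.7 CPM in L1 with a median of 28.8 CPM, and an edgeR adjusted p of 0.0719. Both L2 low palms lay above every L1 palm and both zero palms inside the L1 range. DRM had 612 and 1115 CPM in the L2 zero palms and 1842 and 388 CPM in the L2 low palms, against 114 to 1328 CPM in L1, with an edgeR adjusted p of 0.0749. DRM was called without L2 low palm 2 or L1 low palm 1, with 6 L2 CTAB libraries, with depth and multi-mapped share as terms and with both sets of InnuPREP libraries. GPAT was called without L2 zero palm 1 and with counts thinned to 1 depth.

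The smallest difference among these genes was in AHP1, a histidine phosphotransfer protein of cytokinin signalling, with a log2 fold change of 0.04 ± 0.37 (SE). With InnuPREP libraries it was called higher, at 0.87 for the same 4 palms (edgeR adjusted p of 0.0373) and 0.998 for the 12 libraries (edgeR adjusted p of 7.29e-05). TCTP, a translationally controlled tumour protein, had 1052 and 594 CPM in the L2 zero palms and 1097 and 644 CPM in the L2 low palms, against 644 to 1447 CPM in L1, and a log2 fold change of -0.2 ± 0.19 (SE). The remaining values were 0.34 for PTE, an acyl-ACP thioesterase, -0.12 for GSK, a shaggy-like kinase, -0.44 for ADPRF, an ADP-ribosylation factor, -0.54 for CPRF and -0.69 for the MADS-box gene GLO2. The errors of these values were 0.22 for PTE, 0.46 for GSK, 0.32 for ADPRF, 0.35 for CPRF and 0.4 for GLO2 (SE). PTE, GSK and GLO2 were called with both sets of InnuPREP libraries, PTE higher at up to 1.55, GSK lower at down to -2.24 and GLO2 lower at down to -0.96. A call that was not made does not show that the agencies were equal in these genes.

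The genes that differed most carried LOC identifiers, for which neither the files nor the EG11 gene table gives a product. LOC105043853 had 156 and 279 CPM in the L2 zero palms and 213 and 142 CPM in the L2 low palms, against 0 to 12.8 CPM in L1 with a median of 0. Its log2 fold change was 7.66 ± 0.76 (SE), with an edgeR adjusted p of 2.04e-09. It passed the filter through the L2 palms, since only 3 L1 libraries reached the minimum, so that a low level in L1 came with its being tested. The highest L1 values, 12.8, 7.47 and 5.84 CPM, belonged to the 3 L1 libraries nearest to L2 by their whole profile (low palms 6 and 15 and zero palm 6), and the other L1 libraries reached at most 1.61 CPM. Among L2 libraries not used in the fit, the CTAB high palms had 26.5 and 84.7 CPM, and the 14 palms with only InnuPREP libraries had 4.16 to 256 CPM.

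LOC105050490 had 30.9 and 37.6 CPM in the L2 zero palms and 81.3 and 11.6 CPM in the L2 low palms, against 0 to 5.34 CPM in L1 with a median of 0.486 CPM. The fitted log2 fold change was 5.71 ± 0.51 (SE), with an edgeR adjusted p of 1.94e-10. L1 zero palm 6 held the highest L1 value here, and the CTAB high palms of L2 had 11.9 and 10.7 CPM, above every L1 palm.

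LOC105048324 was the reverse case, with 0.69 and 1.64 CPM in the L2 zero palms and 0.155 and 1.31 CPM in the L2 low palms, against 4.91 to 1266 CPM in L1 with a median of 379 CPM. Its log2 fold change was -8.87 ± 1.48 (SE), with an edgeR adjusted p of 2.03e-05. It passed the filter through the L1 palms, since 1 L2 and 32 L1 libraries reached the minimum. L1 low palm 15 and L1 zero palm 6, both near L2 by their profiles, were the lowest L1 palms at 4.91 and 14.7 CPM. The CTAB high palms of L2 had 0.879 and 1.15 CPM, and the 14 palms with only InnuPREP libraries had 0 to 11.7 CPM.

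LOC105048817 had 3 counts over the 4 L2 libraries together, with 0 CPM in both zero palms and 0.309 and 0.219 CPM in the low palms, against 2.33 to 545 CPM in L1 with a median of 101 CPM. It passed the filter through the L1 palms, since 0 L2 and 32 L1 libraries reached the minimum. The ratio of L1 to L2 was 1081, with an exact 95% counting interval of 370 to 5243 that covers counting error only, and the edgeR adjusted p was 5.15e-05. The calls of these 4 genes held without each of the 36 libraries and in every alternative setting that tested them. There were 19 such settings for LOC105048324 and LOC105048817. There were 18 for LOC105043853 and LOC105050490, which a stricter filter on low counts removed. The 4 genes had been picked for large fold changes without overlap in these same 36 libraries. Leaving out a library could not make the agencies overlap, so these fits were not a separate check of the calls. Most alternative settings reused these libraries as well.

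**Figure D5:**
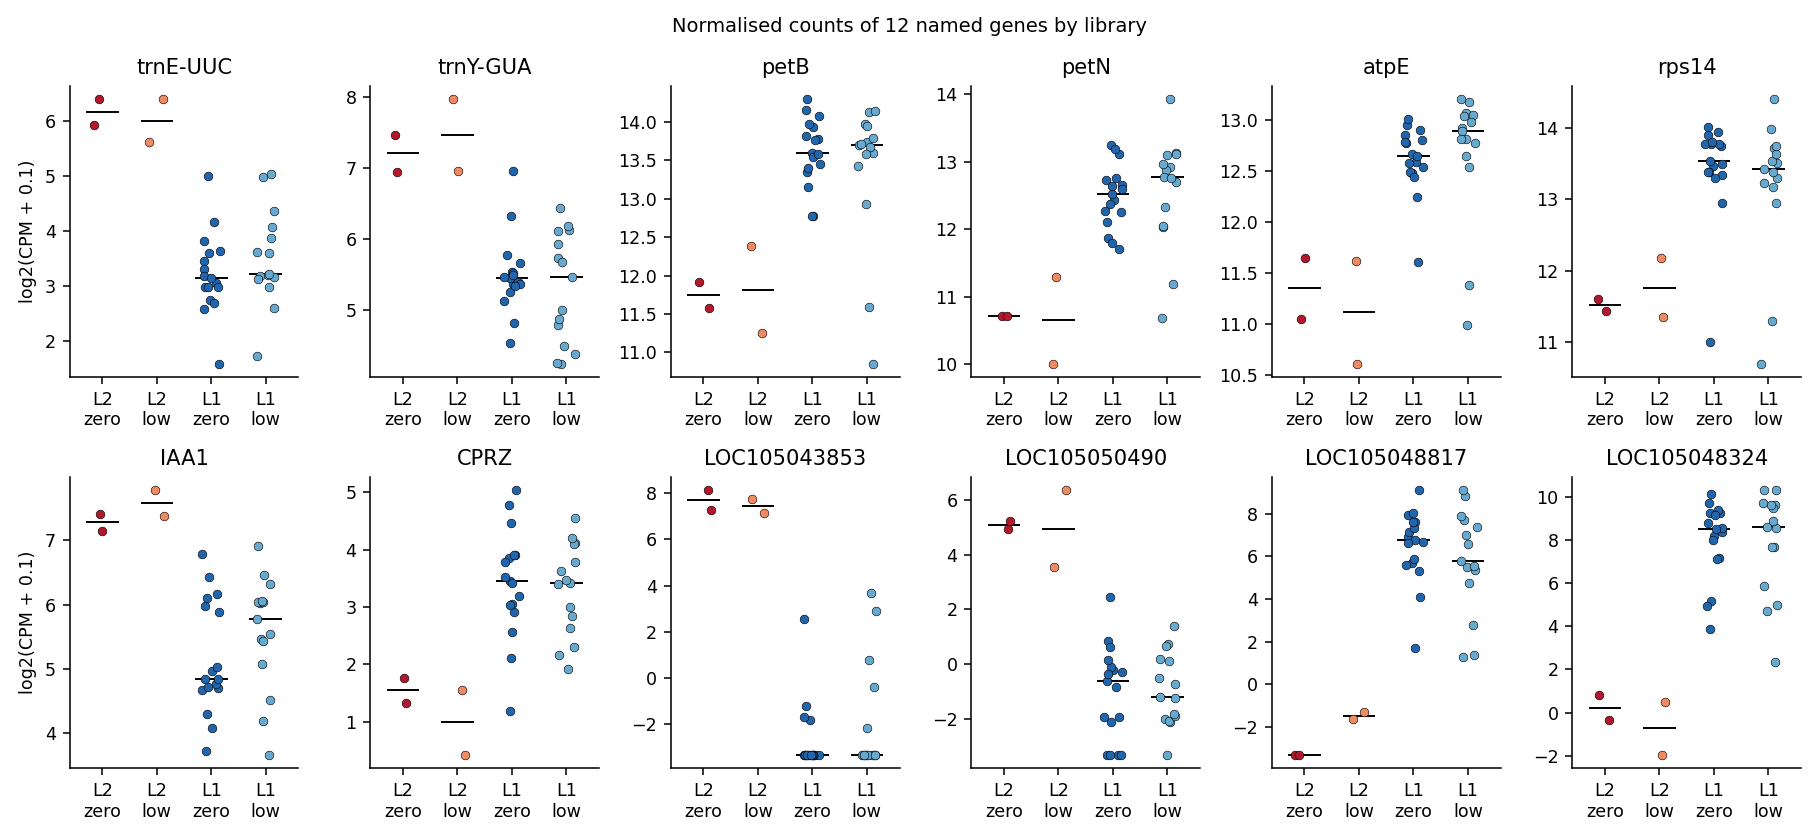
Level of 12 named genes in each library, as log2 of CPM plus 0.1 (vertical axes), one point per library by agency and embryogenesis group with a bar at the median. The L2 palms lie above every L1 palm in trnE-UUC, IAA1, LOC105043853 and LOC105050490 and below every L1 palm in LOC105048817 and LOC105048324, while in petB, petN, atpE and rps14 a few L1 libraries reach the L2 level.

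Among called genes of highest mean CPM, LOC105044027 had 6899 and 4435 CPM in the L2 zero palms and 4748 and 5119 CPM in the L2 low palms, against 914 to 4981 CPM in L1 with a median of 2218 CPM. This was a log2 fold change of 1.09 ± 0.29 (SE) and an edgeR adjusted p of 0.00346. The CTAB high palms of L2 had 2359 and 2430 CPM, inside the L1 range. So were the 14 palms with only InnuPREP libraries, at 1810 to 3644 CPM. The call of LOC105044027 was lost with InnuPREP libraries of the same 4 palms, with low palms only and with a 2-fold minimum. LOC105038981 had 6573 and 3821 CPM in the L2 zero palms and 6537 and 4611 CPM in the L2 low palms, against 713 to 7932 CPM in L1 with a median of 1306 CPM, and an edgeR adjusted p of 0.00156. The 3 L1 libraries nearest to L2 had 7932, 5258 and 4356 CPM, and the other L1 libraries at most 3103 CPM. In LOC105038981 the CTAB high palms of L2 had 6864 and 6206 CPM, and the call was lost with low palms only and with a 2-fold minimum. LOC105040880 was lower, with 3914 and 5099 CPM in the L2 zero palms and 2696 and 3589 CPM in the L2 low palms, against 3646 to 45900 CPM in L1 with a median of 14350 CPM and an edgeR adjusted p of 0.00532. The CTAB high palms of L2 had 2326 and 1404 CPM, below every L1 palm. Its call was lost with InnuPREP libraries of the same 4 palms, with zero or low palms only and with a 2-fold minimum.

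Whether the difference between agencies depended on the embryogenesis group was tested as an interaction. edgeR called 0 of 20340 genes, with a smallest adjusted p of 0.203, and 626 genes (3.08%) had an unadjusted p below 0.05. The 2 genes of smallest p in each direction were LOC105039001 and LOC105061162, and LOC105050492 and LOC105040013. LOC105039001 had 28.7 and 34.8 CPM in the L2 zero palms and 72.8 and 69.7 CPM in the L2 low palms, against 25.4 to 46.6 CPM in L1, so that both low palms and neither zero palm lay above L1. Its agency difference, 0.55 on the log2 scale, lost its edgeR call without L2 low palm 1 or 2. LOC105061162 had 0 CPM in both L2 zero palms and 14.7 and 6.99 CPM in the L2 low palms, against 0 to 13.8 CPM in L1.

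LOC105050492 had 3.11 and 1.31 CPM in the L2 zero palms and no count in the L2 low palms, against 0.897 to 6.72 CPM in L1. LOC105040013 had 2.24 and 5.75 CPM in the L2 zero palms and 1.39 and 0.874 CPM in the L2 low palms, against 4.89 to 11.7 CPM in L1. In InnuPREP libraries of these L2 palms, LOC105039001 had 14.2 and 16.2 CPM in the zero palms and 37.1 and 30.1 CPM in the low palms, and LOC105061162 had 0 CPM in both zero palms and 20.7 and 9.53 CPM in the low palms. LOC105050492 had 0.969 and 0.356 CPM in the zero palms and 0.0786 and 0.357 CPM in the low palms, so that the groups overlapped. LOC105040013 had 2.81 and 7.2 CPM in the zero palms and 1.81 and 2.14 CPM in the low palms. In L2 these contrasts are between 2 palms of each genotype label, and group and label cannot be told apart there.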

How the data were processed

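The values were the authors' deposited counts of reads per gene, whole numbers without normalization, 1 table per library with 27986 genes and 5 summary lines. The summary lines entered neither library sizes nor tests. The submitters' processing notes name bcl2fastq, STAR 2.7.2b and HTSeq 0.11.2. Their settings, the strand and the genome build are not given in the sources used here, so genes that overlap or share reads with a near copy are uncertain. The EG11 gene table matched 25047 identifiers by symbol and was used for names only.

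Groups came from the labels. Counts of the 36 libraries were scaled by TMM, filtered with filterByExpr (a gene needed reads in about 4 libraries, so it could pass through either agency alone) and fitted with robust glmQLFit and glmQLFTest in edgeR 4.0.16 (R 4.3.3), with agency as the sole term. Benjamini-Hochberg adjustment ran over 20340 genes, with calls below 0.05. The standard error of a log2 fold change is its size divided by the square root of F. CPM values of L2 libraries outside the fit were scaled by TMM over all 58 libraries. Library measures were compared by exact permutation tests. No 2 libraries held identical values.

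On simulated counts with 200 changed genes among 20340 for L2 over L1, the fit recovered 30% of 2-fold and 64% of 4-fold changes, with 1 false call. The simulation changed far fewer genes than the 6653 called in the data and drew each gene independently. Its rates therefore need not hold for the data. Counts per library limit precision as given in the results.

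Named were all nuclear genes with a symbol, up to 3 called genes of largest fold change per plastid list and the nuclear tRNA list, the 2 highest and 2 lowest LOC identifiers among called genes without overlap with mean log2 CPM no lower than 1, the 2 called genes of highest mean CPM per direction, and the 2 interaction genes of smallest p per direction. Other genes named beside a list were chosen after their values had been seen. The comparison, the lists and the tests were chosen with earlier results of these data known. Alternatives were RLE scaling, scaling on nuclear genes, DESeq2 1.42.0, limma-voom in limma 3.58.1, other filters, a 2-fold minimum, added terms, other sets of L1 or L2 libraries, thinned counts and leaving out each library. Leaving out the 3 L1 libraries nearest to L2 and matching L1 by multi-mapped share were added after the data had been seen.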

Additional observations from a re-analysis of the deposited data

Results flagged for a closer look

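Of 54 values tested for a stray library among the 4 L2 palms, 2 had one, and chance alone marks about 1 in 20. The total gene count of L2 low palm 2, 4215872, stood apart from 5710783 to 5978482 in the other 3, with a gap of 0.848 of the range, past Dixon's critical value for 4 samples. In trnD-GUC, L2 low palm 1 stood apart at 3.55 CPM against 1.53 to 1.73 CPM, with a gap of 0.863 of the range in log2 CPM.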

How the results depend on the processing

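The count of 6653 called genes stayed within 1.5 times under most of the 19 alternatives, from 5285 (L1 of matched multi-mapped share) to 9149 (InnuPREP libraries of the same 4 L2 palms). It was 13077 with the 12 L2 InnuPREP libraries, 1083 with a 2-fold minimum, 3361 with zero palms only and 1711 with low palms only, the last 2 with 2 L2 palms each. DESeq2 gave 7344, of which 6585 were among the 6653. Leaving out 1 library gave 4660 (without L2 low palm 1) to 7071 (without L1 low palm 11). The 18 plastid genes called lower became 74 with the 12 InnuPREP libraries, 62 with InnuPREP of the same 4 palms, 46 against L1 of matched multi-mapped share, 42 with 6 L2 CTAB libraries or with depth and multi-mapped terms, 35 without the 3 nearest L1 libraries, 31 in limma-voom, 28 in DESeq2, 10 with zero palms only, and 1 with low palms only or a 2-fold minimum. The 9 nuclear tRNA rows called higher became 14 with no filter, 5 with a stricter filter or 6 L2 CTAB libraries, 3 against L1 of matched multi-mapped share, 2 with low palms only, and 0 with zero palms only, a 2-fold minimum or either set of InnuPREP libraries. Leaving out 1 L2 palm took them to 10 (plastid, without low palm 1) and 1 (tRNA, without low palm 2).

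DESeq2 called 5 genes in the interaction, where edgeR called 0: LOC105059917, LOC105039001, LOC105061162, LOC105053547 and LOC105052641, the first and the last 2 named after their values were seen. Genes on in L1 and off in L2 numbered 1 with on at 0.5 CPM. Genes detected were 395 more in L2 with all 6 L2 CTAB libraries (exact permutation test, adjusted p of 0.0122). With the 4 L2 palms of the main comparison they were 191 more, not called (exact permutation test, adjusted p of 0.338). Leaving out 1 of these 4 palms gave 123 to 327 more, called only without low palm 2. The difference in plastid share then lay between -5.31 and -4.5 percentage points, not called without low palm 1.

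Log2 fold changes that turned sign were, with InnuPREP libraries of the same 4 palms, 0.201 for ADPRF, 0.22 for TCTP, -0.38 for TRNAL-UAG, -3.52 for TRNAE-CUC, -0.47 for LOC105039001 and 0.37 for LOC105061162. With the 12 InnuPREP libraries they were 0.18 for TCTP, -0.48 for LOC105039001 and 0.42 for LOC105061162. AHP1 was -0.015 against Dumpy Yangambi Avros only and -0.11 with low palms only, GSK was 0.17 in limma-voom and 0.032 with zero palms only, LOC105039001 was -0.22 with zero palms only, and LOC105061162 was 0.18 with 6 L2 CTAB libraries and 0.78 with low palms only. Leaving out 1 library gave -0.068 to 0.198 for AHP1, -0.298 to 0.044 for GSK and -1.42 to 0.26 for LOC105061162. The cause was not tested. No paired analysis was possible because no palm was shared between the agencies and replicate numbers were given in accession order.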
